A study of Sus scrofa with 20 samples.

Results

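The genes of respiratory complexes II to V were examined in longissimus dorsi muscle, the long back muscle, of Duroc and Pietrain pigs. A probe set was counted as a member when the array annotation gave it 1 gene symbol and that symbol named a succinate dehydrogenase subunit (SDHA to SDHD), CYC1 or CYCS, or opened with UQCR, with COX and a digit, or with ATP5. This gave 57 probe sets of 31 genes, out of 45922 tested porcine probe sets and 13609 named genes. Symbols are those of the annotation, so the subunits of complex V carry their older ATP5 names. A gene with several probe sets is summarised by the one that was brightest on average over all animals, and no value used in this choice compared the breeds. No member was found for SDHC, CYC1 or COX4I1, which were therefore not analysed here.

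Muscle RNA of 10 Duroc and 10 PiNN animals was hybridised to the Affymetrix Porcine Snowball array, each animal on an array of its own. PiNN are Pietrain pigs homozygous negative for malignant hyperthermia syndrome (MHS), so both copies of the ryanodine receptor gene RYR1 carry the normal allele, and the RYR1 genotype of the Duroc animals is not given in the sources used here. All animals were adult and purebred from commercial lines, and the labels place sampling 24 h before slaughter. The comparison asks in which genes muscle of the leaner Pietrain differs from that of the fatter Duroc. Values are log2 probe set signals, and differences are Duroc minus PiNN, so that a negative difference means a higher signal in PiNN. Whole muscle holds several cell types, and fewer mitochondria-rich fibres cannot be told apart from less of these RNAs per fibre.

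The respiratory chain in the inner mitochondrial membrane passes electrons from NADH and succinate to oxygen and stores the energy as a proton gradient. Complex II (succinate dehydrogenase) feeds in electrons from the citric acid cycle, complex III hands them to cytochrome c, complex IV (cytochrome c oxidase) delivers them to oxygen, and complex V (ATP synthase) uses the gradient to make ATP. In skeletal muscle the content of these complexes is known to be high in slow, oxidative fibres and low in fast, glycolytic ones, and complex IV exists with alternative subunits in muscle and in other tissues.

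Among the 31 genes, 1 passed the test between breeds, and it was not a subunit. COX10, the enzyme that makes the heme A precursor needed to build complex IV, was 1.30-fold higher in PiNN. None of the 31 was called higher in Duroc. By limma with Benjamini-Hochberg adjustment at 0.05, 4.06% of all named genes were called higher in Duroc and 2.33% higher in PiNN. Counted over all 57 probe sets, 0 were called higher in Duroc and 1 higher in PiNN, against 2.76% and 1.41% of all tested probe sets. At an unadjusted limma p under 0.05 the members gave 0 genes higher in Duroc and 3 higher in PiNN (COX10, SDHA and ATP5SL), where all named genes gave 11.2% and 11.0%. The share of called members is thus near that of all genes on the PiNN side. The methods' ANOVA with the same adjustment called 0 of the 31 genes.

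Mean signals were lower in Duroc for 21 of the 31 genes, with a median difference of -0.12. Over all named genes the median was -0.03 and 56.7% were lower in Duroc. Leaving out 1 animal at a time gave member medians from -0.19 (without PiNN 49) to -0.02 (without PiNN 20), with -0.04 without Duroc 24, -0.06 without Duroc 31 and -0.07 without PiNN 19 or 21. When the 5 arrays with the highest background were left out it was 0.01, and 15 of 31 genes were lower in Duroc. The 2 breeds overlapped for all 31 genes, and the share over all named genes is not given here, so this count does not set the members apart. The 95% intervals of 17 genes lay within 0.5 of no difference on the log2 scale and those of all 31 within 1 in either direction. Smaller differences of single members than these remain possible. For the genes with wider intervals, differences beyond 0.5 remain possible too, as for ATP5SL, whose interval reached -0.85.

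**Figure D1:**
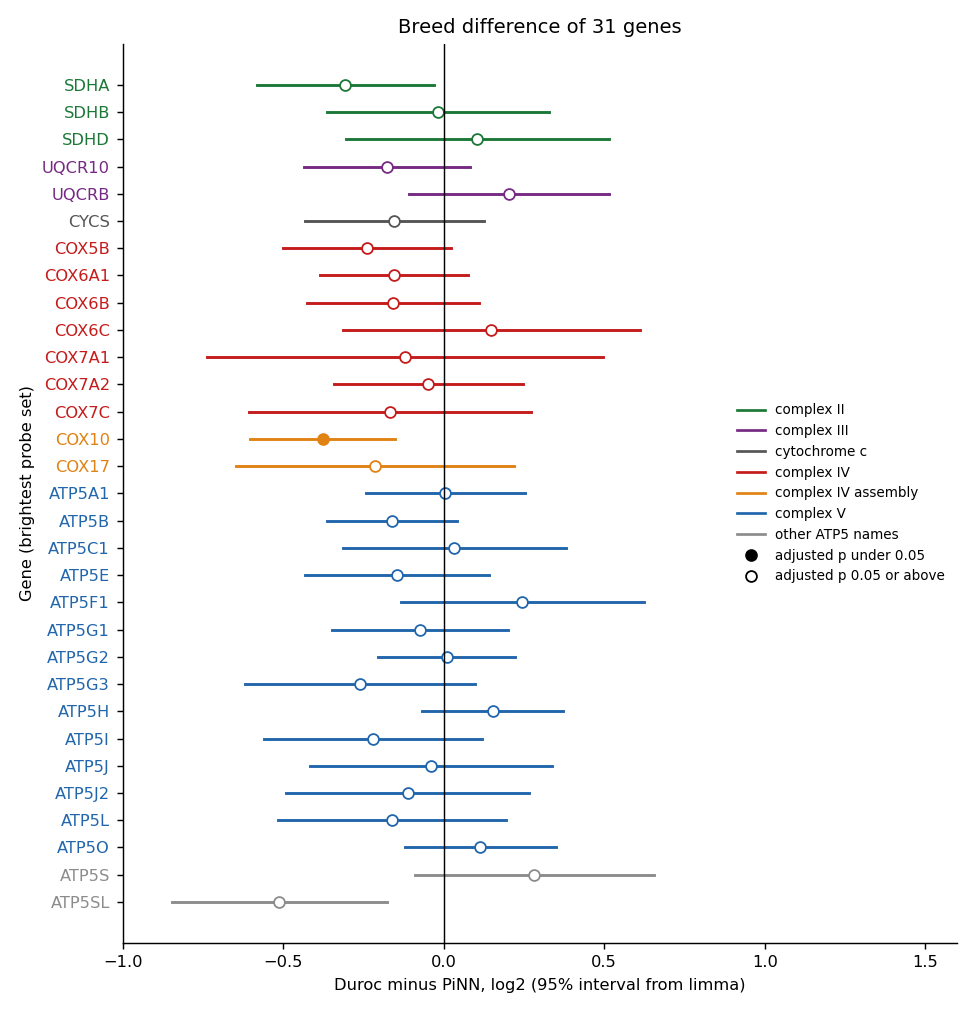
Breed differences of the 31 genes. The x axis is Duroc minus PiNN on the log2 scale, each point is the brightest probe set of a gene, and bars are 95% intervals from limma over 10 Duroc and 10 PiNN animals. Colours give the complex, and the filled point of COX10 is the only one past the adjusted threshold. Of the 31 points, 21 lie left of 0, and the intervals of SDHA, COX10 and ATP5SL are the ones that exclude it.

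Complex II was represented by SDHA, the flavoprotein that oxidises succinate, SDHB, the iron-sulfur subunit, and SDHD, 1 of its membrane anchors. SDHA signals ran from 9.34 through a median of 9.93 to 10.35 in Duroc and from 9.63 through 10.28 to 10.68 in PiNN. The lowest animals were Duroc 24 and PiNN 49, and 9 of 10 Duroc animals lay below the PiNN median although the ranges overlapped. The difference was -0.31 (standard error 0.13, limma p = 0.0308, adjusted p = 0.224), so SDHA did not pass over all probe sets.

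SDHA had 4 probe sets, and all 4 had lower means in Duroc, with differences from -0.38 to -0.30. Probe sets of 1 gene share their RNA and are not independent. The most distant of them, SNOWBALL_026605_st, ran from 8.37 to 9.21 in Duroc and from 8.65 to 9.65 in PiNN, and none of the 10 Duroc animals reached the PiNN median of 9.23. Its difference of -0.38 had an adjusted p of 0.128 by limma, and it passed in 0 of the 20 fits that left out 1 animal (adjusted p from 0.0699 to 0.205). It passed after quantile normalization (0.0223), with the array background as a covariate (0.0159) and without PiNN 49 and 62 (0.0493), and under none of the other settings with adjusted p-values or q-values.

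SDHB differed less between breeds, with -0.02 (standard error 0.17, adjusted p = 0.977 by limma) for its brightest probe set. Its signals ran from 9.38 to 10.63 in Duroc (median 10.11) and from 9.20 to 10.72 in PiNN (median 10.17), nearly the same range in both breeds. All 6 probe sets of SDHB had lower means in Duroc, by amounts from -0.33 to -0.02, and none passed. SDHD was higher in Duroc by 0.11 on average (standard error 0.20, adjusted p = 0.858 by limma), with signals from 6.46 to 8.37 in Duroc and from 6.85 to 8.13 in PiNN. The catalytic subunit and the anchor of the same complex thus had mean differences of opposite sign, neither past the adjusted threshold, and whether they differ from each other was not tested.

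**Figure D2:**
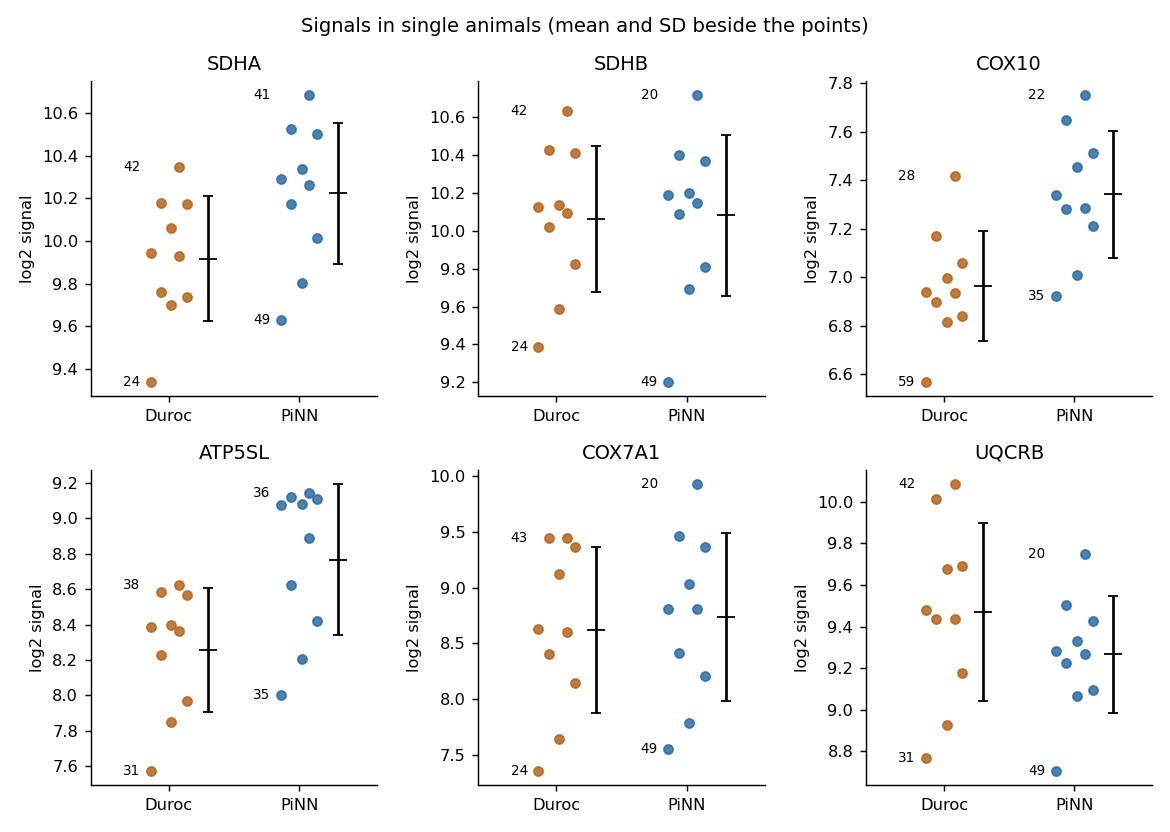
Log2 signals of SDHA, SDHB, COX10, ATP5SL, COX7A1 and UQCRB in single animals. Each point is 1 animal, the lowest and highest animal of each breed carry their numbers, and the bars beside the points are the mean and SD of 10 animals. COX10 and ATP5SL sit lower in Duroc with some overlap, whereas SDHB and COX7A1 cover nearly the same range in both breeds.

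Complex III was represented by 2 small subunits whose mean differences had opposite signs. UQCR10 ran from 7.37 through a median of 7.71 to 8.19 in Duroc and from 7.51 through 7.93 to 8.44 in PiNN, and differed by -0.18 (standard error 0.13, adjusted p = 0.523 by limma). UQCRB, which lies at the ubiquinone-binding part of the complex, ran from 8.77 through 9.46 to 10.09 in Duroc and from 8.71 through 9.28 to 9.75 in PiNN, and differed by 0.20 (standard error 0.15, adjusted p = 0.55). The Duroc animals were spread more widely for UQCRB, with an SD of 0.43 against 0.28 in PiNN. CYCS, the soluble carrier between complexes III and IV, had signals from 4.67 to 5.67 in Duroc and from 4.91 to 5.77 in PiNN, and differed by -0.15 (standard error 0.13, adjusted p = 0.634).

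Of the structural subunits of complex IV, 7 were measured, all of them encoded in the nucleus, and none passed. Mean signals were lower in Duroc for 6 of the 7, with a median difference of -0.15. COX5B had the lowest difference at -0.24 (standard error 0.13, adjusted p = 0.349 by limma). Its signals ran from 6.30 through 6.65 to 7.22 in Duroc and from 6.32 through 6.94 to 7.42 in PiNN, and 7 of 10 Duroc animals lay below the PiNN median. Its other 2 probe sets had differences of 0.08 and 0.01, so they did not share this sign. The one with 0.01 averaged 2.38, below the background mean of 3.93, and is poorly measured. COX6C was the only structural subunit with a higher mean in Duroc, by 0.15 (standard error 0.22, adjusted p = 0.814), and its 10 Duroc animals ran from 8.40 to 9.82 against 8.20 to 9.89 in PiNN.

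The subunit COX7A is known in a form found mainly in heart and skeletal muscle, COX7A1, and a more widespread form, COX7A2. By the brightest probe set of each gene, COX7A1 varied most between animals of the same breed among the members, with signals from 7.36 (Duroc 24) through a median of 8.62 to 9.44 (Duroc 43) in Duroc and from 7.55 (PiNN 49) through 8.81 to 9.93 (PiNN 20) in PiNN. Its breed difference of -0.12 had a standard error of 0.30 and an interval from -0.74 to 0.50 (adjusted p = 0.897 by limma), so a breed effect of either sign could lie within it. COX7A2 was more even, with signals from 6.21 to 7.37 in Duroc and from 6.25 to 7.27 in PiNN and a difference of -0.05 (standard error 0.14, adjusted p = 0.918). Another isoform of this kind, COX6A1, the form found outside heart and muscle, differed by -0.15 (standard error 0.11, adjusted p = 0.536). The remaining subunits COX6B and COX7C differed by -0.16 and -0.17, both with an adjusted p above 0.6 by limma. COX7C had its highest Duroc signal in animal 31, at 6.77, and COX6A1 its lowest in Duroc 46, at 5.49, so the order of the animals was not the same in each subunit.

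COX10 and COX17 carry COX names but act in building complex IV. COX10 signals ran from 6.57 (Duroc 59) through a median of 6.94 to 7.42 (Duroc 28) in Duroc. In PiNN they ran from 6.92 (PiNN 35) through 7.31 to 7.75 (PiNN 22). The ranges overlapped, with 9 of 10 Duroc animals below the PiNN median. The difference was -0.38 (standard error 0.11, limma p = 0.00207, adjusted p = 0.0498), just inside the threshold. The call was kept without Duroc 28 or without PiNN 21, 35 or 49 and lost when any 1 of the other 16 animals was left out, with adjusted p from 0.0269 to 0.0971 over the 20 fits. The difference itself stayed between -0.43 and -0.33 in those fits. The other COX10 probe set, SNOWBALL_031149_st, with a median signal of 5.05 in Duroc and 5.02 in PiNN, differed by -0.01 (adjusted p = 0.971 by limma) and did not show the difference. COX17, a copper chaperone of complex IV, ran from 7.37 to 8.65 in Duroc and from 7.47 to 9.10 in PiNN, and the breeds differed by -0.21 (standard error 0.21, adjusted p = 0.682).

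For complex V, 14 genes were measured and none passed, with 8 means lower in Duroc, 6 higher and a median difference of -0.06. ATP5B, the catalytic beta subunit, ran from 11.08 through 11.59 to 11.90 in Duroc and from 11.38 through 11.75 to 11.95 in PiNN, and differed by -0.16 (standard error 0.10, adjusted p = 0.437 by limma). ATP5A1, the alpha subunit that alternates with beta in the catalytic head, differed by 0.01 (standard error 0.12, adjusted p = 0.99), with an interval from -0.24 to 0.25. Both had narrow spreads between animals relative to most members. ATP5C1, the gamma subunit of the central stalk, differed by 0.03 and ATP5E, the epsilon subunit, by -0.15, with standard errors of 0.17 and 0.14 and adjusted p-values above 0.6 by limma.

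ATP5G1, ATP5G2 and ATP5G3 encode the same mature protein, subunit c of the rotating membrane ring, with different import sequences. Their differences were -0.07 (standard error 0.13), 0.01 (standard error 0.10) and -0.26 (standard error 0.17), with adjusted p-values of 0.851, 0.981 and 0.487 by limma. ATP5G3 had the lowest difference of complex V, with Duroc signals from 7.16 through 7.55 to 8.06 and PiNN signals from 7.15 through 8.03 to 8.77, and PiNN 20 was the highest animal of all. Of the 3, ATP5G2 varied least, from 10.59 to 11.18 in Duroc and from 10.38 to 11.15 in PiNN.

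ATP5F1, a subunit of the peripheral stalk that holds the catalytic head still, had the highest difference of complex V at 0.24 (standard error 0.18, adjusted p = 0.556 by limma). Its signals ran from 8.77 through 9.48 to 10.09 in Duroc and from 8.49 through 9.22 to 9.87 in PiNN, and 6 of 10 Duroc animals lay above the PiNN median. Of the other stalk subunits, ATP5O differed by 0.11, ATP5J by -0.04 and ATP5H by 0.15. The ATP5H signal averaged 2.04 where the background averaged 3.93, so its difference is poorly measured. ATP5O averaged 4.47, nearer to that background than ATP5F1 (9.32) and ATP5J (9.58). The membrane subunits ATP5I, ATP5J2 and ATP5L differed by -0.22, -0.11 and -0.16, with adjusted p-values by limma above 0.5.

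ATP5SL and ATP5S carry ATP5 names without being structural subunits of complex V. ATP5SL, now named DMAC2 and known in human cells as a factor in the assembly of complex I, had the largest difference of the 31 genes. Its signals ran from 7.57 (Duroc 31) through a median of 8.38 to 8.62 (Duroc 38) in Duroc and from 7.999 (PiNN 35) through 8.98 to 9.15 (PiNN 36) in PiNN. None of the 10 Duroc animals reached the PiNN median, and the ranges overlapped. The difference was -0.51, or 1.43-fold (standard error 0.16, limma p = 0.00427, adjusted p = 0.0752), and did not pass. It passed without PiNN 35 (adjusted p = 0.0305) or PiNN 49 (0.0416) and in none of the other 18 fits that left out 1 animal. ATP5S, now named DMAC2L, had the highest difference of the members at 0.28 (standard error 0.18, adjusted p = 0.464 by limma), with 4.80 to 6.45 in Duroc and 5.05 to 5.84 in PiNN.

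Probe sets of the same gene did not always share a sign. Of the 31 genes, 14 had several probe sets, of which 7 had all differences of 1 sign and 7 had both signs, and 17 genes had a single probe set. The mean signal was above the background mean for 49 of the 57 probe sets. The widest disagreement was in ATP5C1, whose 4 probe sets ran from -0.16 to 0.23, the latter from a probe set below the background mean. With the mean over all probe sets of each gene the median of the members was -0.07.

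The structural subunits differed more between animals than between breeds, and often in the same animals. The median SD within breeds was 0.36 over the 31 genes and 0.24 over all named genes. The median differences were -0.12 and -0.03, but genes of opposite sign cancel in these signed values. Whether the first part holds for genes in general was not examined, so it does not set the members apart. To show the pattern by animal, each gene's signal was centred on its mean over the 20 arrays and averaged over the genes of a complex, here called the complex level. The counts by animal use the 27 genes left without COX10, COX17, ATP5S and ATP5SL, that is the structural subunits and CYCS. In Duroc 42, 27 of 27 were above their own mean, and in Duroc 38 and PiNN 19 and 20, 26 of 27 were. In Duroc 32 and PiNN 49, 26 of 27 were below their mean, and in Duroc 24 and 31, 24 of 27 were below. Duroc 24 was the lowest Duroc animal for 19 of all 31 genes, PiNN 49 the lowest PiNN animal for 22 and PiNN 20 the highest for 24.

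The complex II level ran from -0.83 (Duroc 24) through a median of 0.01 to 0.45 (Duroc 42) in Duroc and from -0.66 (PiNN 49) through 0.13 to 0.56 (PiNN 20) in PiNN. For complex III the range was -0.46 to 0.49 in Duroc and -0.50 to 0.48 in PiNN. For complex IV it was -0.49 to 0.41 in Duroc and -0.66 to 0.67 in PiNN. For complex V it was -0.46 to 0.32 in Duroc and -0.49 to 0.51 in PiNN. The same pair of animals, Duroc 24 and PiNN 49, was lowest in its breed in all 4 complexes, and PiNN 20 was highest of PiNN in all 4. Between breeds the mean levels differed by -0.07 for complex II, 0.01 for III, -0.11 for IV and -0.04 for V, smaller than the SD within either breed, which was 0.28 or more.

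**Figure D3:**
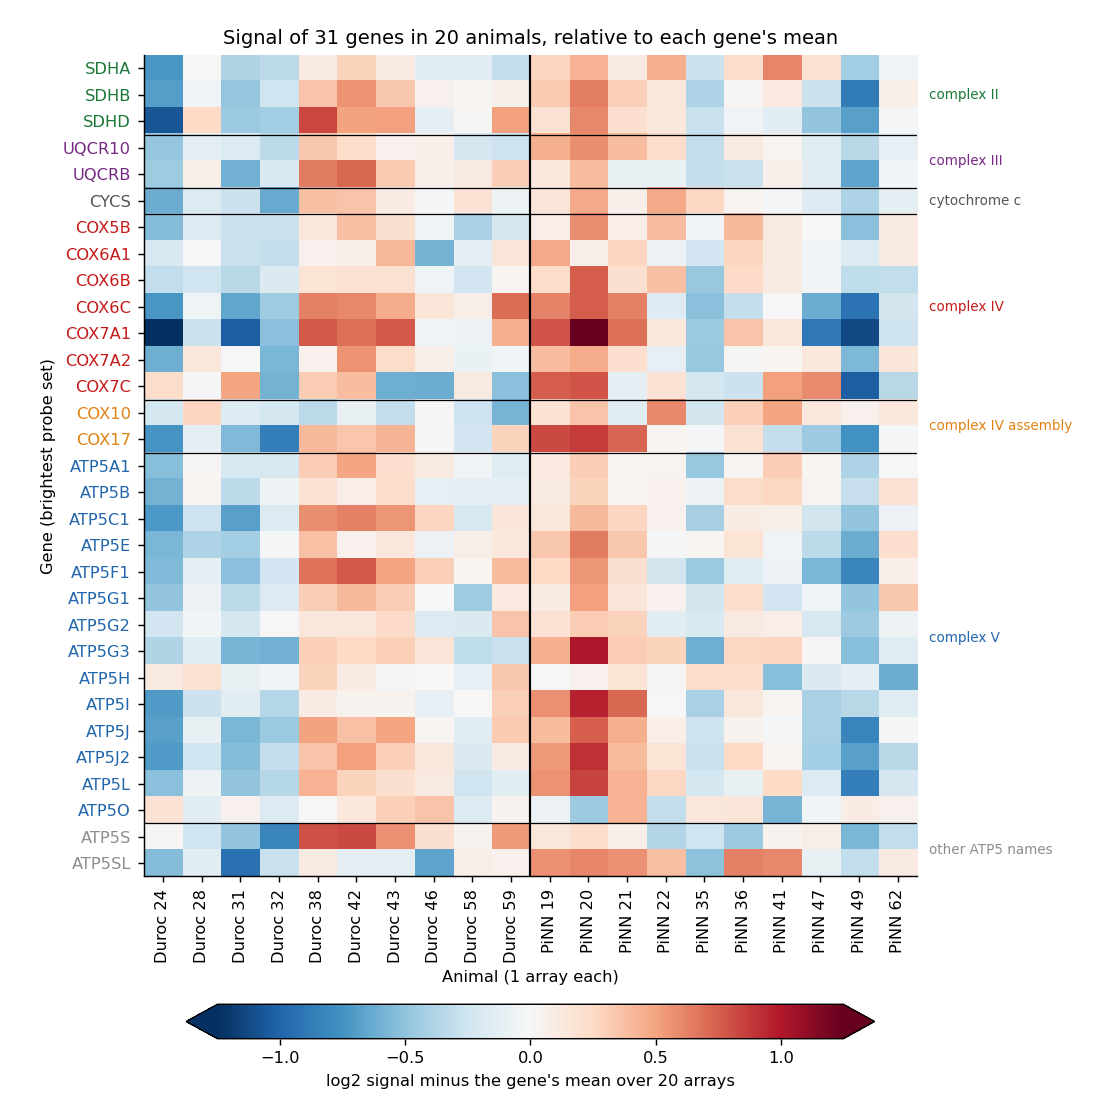
Centred log2 signals of the 31 genes in 20 animals. Rows are genes grouped by complex, columns are animals with Duroc left of the line and PiNN right of it, and red and blue mark signals above and below the gene's own mean. Duroc 24, 31 and 32 and PiNN 49 are blue over most rows and Duroc 38, 42 and 43 and PiNN 19, 20 and 21 red, while ATP5H, ATP5O, COX7C and COX10 break the columns.

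Arrays with low member signals were often those with a high background, taken as the mean log2 signal of 69 background probe sets on the same array. The 5 highest backgrounds were 4.21 in PiNN 49, 4.10 in Duroc 31, 4.09 in PiNN 36, 4.07 in Duroc 24 and 4.05 in Duroc 32, and the lowest was 3.78 in Duroc 59. PiNN 36 was an exception, with 21 of 27 genes above their mean. Over 20 animals, 30 of the 31 genes had a negative Pearson correlation with the array background (median r = -0.60, from -0.86 to 0.26). With Benjamini-Hochberg adjustment over these 31 relations, 18 passed by permutation of Pearson's r, 18 by Spearman's rho and 17 by both. Over all 13609 named genes 47.1% had a negative r, the median was 0.04, and 13.4% had an r as low as the weakest of those 18 members (-0.56). These shares are a description with no test. Signals and background were normalized on the same arrays, and the part of array quality in the shared pattern was not tested.

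COX6C had r = -0.86, the lowest Pearson value, and rho = -0.83 (permutation p = 1e-05 for r, the smallest 100000 permutations can give, adjusted p = 0.000103). Without the arrays of PiNN 49 and Duroc 31, the farthest from the median background, its r was -0.81, and within breeds it was -0.94 in Duroc and -0.79 in PiNN. For COX7A1 r was -0.70 (rho = -0.68, adjusted permutation p = 0.00227), and -0.58 without those 2 arrays. For SDHA r was -0.36 (rho = -0.27, adjusted permutation p = 0.157) and -0.15 without them. COX10 was the 1 gene with a positive r, at 0.26 (rho = 0.39, adjusted permutation p = 0.305). Over the 31 genes the median r was -0.45 without those 2 arrays, -0.75 within Duroc and -0.61 within PiNN, and the sign was negative in both breeds for 27.

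**Figure D4:**
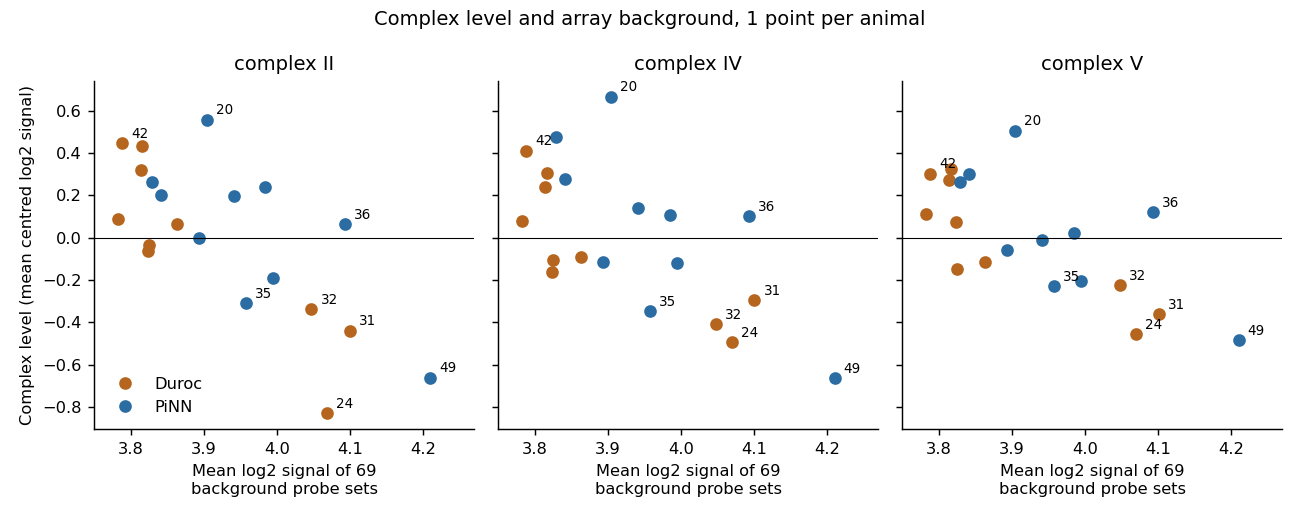
Complex level against array background in 20 animals, for complexes II, IV and V. The x axis is the mean log2 signal of 69 background probe sets, the y axis the mean centred log2 signal of the complex's genes, and each point is 1 animal coloured by breed. PiNN 49, with the highest background at 4.21, and Duroc 24, 31 and 32 lie low in each panel, and PiNN 36 lies above 0 at a background of 4.09.

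The mean background was 3.89 in Duroc and 3.96 in PiNN, and differed by -0.07. Between animals, a higher background went with lower signals in 30 of the 31 genes (median r = -0.60). PiNN had the higher mean background and also the higher mean signal in 21 of the 31 genes (member median -0.12). Without the 5 arrays of highest background the member median was 0.01. The part of the background in the breed differences was not tested. With the array background as a covariate, 26 of the 31 genes were lower in Duroc and the member median was -0.24, while that of all named genes was -0.01. By limma this fit called 0 members higher in Duroc and 2 higher in PiNN, ATP5SL (adjusted p = 0.0135) and SDHA (0.0454), where 3.28% and 4.32% of all named genes were called. COX10 was not called in it (adjusted p = 0.0695). After quantile normalization the calls were 0 and 2 (COX10 and ATP5SL), against 4.51% and 2.98% of all named genes.

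Other mitochondrial genes showed small differences of the same kind. For complex I, the NADH dehydrogenase that opens the chain, 27 genes were taken by their NDUFA, NDUFB, NDUFC, NDUFS or NDUFV symbols. They include NDUFA4 and NDUFA4L2, so not each of them need be a complex I subunit. Of the 27, 0 were called higher in Duroc and 1 higher in PiNN by limma, with a median difference of -0.11. The called one, NDUFB10, differed by -0.33 (adjusted p = 0.0422) and kept the call without Duroc 24, 31 or 43 or PiNN 35, 47 or 62 but lost it in the other 14 fits that left out 1 animal. Of 8 genes that reflect mitochondrial content, among them citrate synthase (CS, 0.04), none passed and the median was -0.10. The level of these 27 genes taken for complex I was lowest in Duroc 24 (-0.52) and PiNN 49 (-0.64), as for complexes II to V. It was highest in Duroc 42 (0.35) and PiNN 20 (0.59). The mitochondrial content level was also lowest in Duroc 24 (-0.38) and PiNN 49 (-0.47), and highest in Duroc 38 (0.28) and PiNN 20 (0.38).

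Of 11 measured factors outside the naming rule that assemble complexes III, IV and V or support their expression, 1 was called higher in each breed. LRPPRC, which stabilises the mitochondrial mRNAs that encode core subunits of complex IV, was 1.41-fold higher in Duroc (0.49, standard error 0.12, adjusted p = 0.0225 by limma) and passed in all 20 fits that left out 1 animal. Its signals ran from 8.08 through 8.67 to 9.05 in Duroc and from 7.49 through 8.21 to 8.42 in PiNN. BCS1L, which inserts the iron-sulfur protein into complex III, was 1.37-fold higher in PiNN (-0.45, standard error 0.12, adjusted p = 0.0357), and none of the 10 Duroc animals reached the PiNN median. It lost the call without Duroc 32, 43, 46, 58 or 59 or PiNN 19, 20 or 36. With COX10, the genes called around complexes III and IV thus had differences of both signs. Of 9 measured regulators of mitochondrial biogenesis none passed, including the coactivator PPARGC1A (0.56, standard error 0.27, adjusted p = 0.283) and the transcription factor NRF1 (-0.24, standard error 0.07, adjusted p = 0.0513).

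Markers of fibre types and other cells gave the following values beside these results. The means of all 10 slow fibre markers were higher in Duroc, by a median of 0.29, and 0 passed by limma. Their mean centred level ran from -0.54 to 0.74 in Duroc and from -1.47 (PiNN 35) to 0.51 in PiNN, with PiNN 49 at -1.10. Of 11 fast fibre markers 9 had lower means in Duroc, and 0 passed. The fast fibre level ran from -0.16 (Duroc 24) to 0.06 (Duroc 38) in Duroc. In PiNN it ran from -0.17 (PiNN 49) to 0.17 (PiNN 20), so the lowest animals were those of complexes II to V. All measured markers of both fibre types were above the background mean. Of 5 red blood cell markers, all with lower means in Duroc, ALAS2 was called higher in PiNN by limma (-0.51, adjusted p = 0.0327). HBB differed by -1.16 (adjusted p = 0.0527). HBM, SLC4A1 and AHSP differed by only -0.05, -0.01 and -0.04, and AHSP lay below the background mean. ALAS2 lost the call without Duroc 24, 28, 38, 46 or 59 or PiNN 22, 35 or 36. Their level ran from -0.39 to 0.20 in Duroc and from -0.11 to 0.54 in PiNN. None of the 6 adipocyte, 5 endothelial, 4 leukocyte, 6 fibroblast and 2 cardiac markers passed. The part of fibre types and blood cells in the member values was not tested.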

How the data were processed

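The deposited values are log2 signals, 1 for each probe set and array, already summarised and normalized by the authors. GCOS 1.1.1 stands in the submitters' processing notes, and the way of summarising and normalizing is not given in the sources used here. Per array, the median signal lay between 4.61 and 4.73, and pairs of arrays correlated at 0.953 or above. The number of arrays limits the precision. The labels place sampling before slaughter, while the study's methods describe tissue taken after slaughter for DNA, and this was not resolved. The sex of the animals is not given in the labels.

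Of 47845 probe sets, the 45922 of the pig were tested. The 1923 left out are controls, background probes and those of other species. A single gene symbol was given for 26058. Breeds were compared with limma 3.58.1 in R 4.3.3 (two-sided tests from lmFit and eBayes with a term for breed alone), with Benjamini-Hochberg adjustment over all tested probe sets at 0.05. P-values set a difference against the spread between these animals. The procedure was run on simulated data with independent noise for each probe set. Those data lack the shared variation between animals described above, so the run does not cover it. All 31 symbols were found in RefSeq, and no genome build is stated for the array, so no coordinates are given.

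The genes named are all members with a probe set past the threshold, the highest and lowest difference of each group, the succinate dehydrogenase subunits, CYCS, the isoforms, the brightest gene of each group, and genes with a passing probe set and another of the other sign. The remaining members were added in short form. The members and the marker lists were chosen with earlier results of these data known. Alternatives were the methods' ANOVA with and without q-values, unadjusted p-values, brighter probe sets, quantile normalization, median centring, array weights, a trended and robust variance, the array background as a covariate, leaving out each animal, and other choices of probe set. Fits without PiNN 49 and 62 and without the 5 arrays of highest background were added after the data were seen.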

Additional observations from a re-analysis of the deposited data

How the results depend on the processing

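The count of member genes higher in PiNN was 1, and it was 1 as well with q-values, brighter probe sets alone, a trended and robust variance, array weights or any probe set of the gene. It was 0 with the methods' ANOVA, with median centring and without the 5 arrays of highest background, 2 with quantile normalization, with the array background as a covariate and without PiNN 49 and 62, and 3 at an unadjusted p. The count of probe sets was 0, 0 and 0, then 3, 6 and 3, then 5 in the same order. Leaving out 1 animal gave 0 to 2 for genes and for probe sets. The counts higher in Duroc were 0 under every setting run, those at an unadjusted p included. The 2 fits without chosen arrays were added after the data were seen. The cause of these changes was not tested.

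COX10 kept its sign under each setting. Its adjusted p was 0.0653 with the methods' ANOVA, 0.0632 with median centring, 0.0695 with the background covariate and 0.133 without the 5 arrays. By their brightest probe sets, the 11 genes whose sign changed passed under no setting, and their main differences were at most 0.15 in size. Not all of the 6 probe sets called with the background covariate are named here. Without the 5 arrays of highest background the difference was 0.074 for SDHB, 0.15 for COX7A1, 0.035 for COX7A2, 0.0094 for ATP5G1, 0.093 for ATP5J and 0.017 for ATP5J2. SDHB probe sets SNOWBALL_022264_s_st and SNOWBALL_021155_s_st gave 0.0091 and 0.0063 there. With the background covariate it was -0.12 for SDHD, -0.13 for COX6C, -0.097 for ATP5A1, -0.14 for ATP5C1 and -0.078 for ATP5G2. With quantile normalization it was -0.031 for ATP5A1 and -0.015 for ATP5G2. Median centring gave -0.0032 for ATP5A1, and array weights gave -0.0022 for ATP5G2. Without PiNN 49 and 62 it was -0.043 for ATP5A1, -0.034 for ATP5C1 and -0.054 for ATP5G2. The COX10 probe set SNOWBALL_031149_st gave 0.00012 with array weights, 0.018 with the covariate, 0.024 without PiNN 49 and 62 and 0.040 without the 5 arrays. Leaving out 1 animal gave -0.11 to 0.059 for SDHB, -0.25 to 0.020 for COX7A1, -0.11 to 0.017 for COX7A2, -0.049 to 0.064 for ATP5A1, -0.036 to 0.11 for ATP5C1, -0.041 to 0.045 for ATP5G2, -0.13 to 0.041 for ATP5J, -0.13 to 0.053 for SDHB probe set SNOWBALL_022264_s_st and -0.062 to 0.043 for the COX10 probe set. The number of arrays, 20, limits what could be detected.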
